A study of Drosophila melanogaster with 2 samples.

Results

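One-direction promoter peaks of Rx-eGFP are peaks with a protein-coding start at most 500 bp from the summit and with every start in that range on the same strand. The series-wide conservative list held 3303 peaks, of which 2607 lay on 2L, 2R, 3L, 3R and 4, and 690 of these met the rule. The rule uses position alone, and no peak height or sequence. Of the remaining peaks on these arms, 462 had starts on both strands within 500 bp and are called bidirectional promoter peaks, and 1455 had no start that near and are called distal, 954 of them within a gene and 501 between genes. Chromatin immunoprecipitation with sequencing was done in 1 group of 2 biological replicates, each from whole Drosophila melanogaster embryos of the Rx-GFP strain, 0 to 24 h old, which carry an inserted transgene for Rx fused to eGFP. An anti-GFP antibody was used on chromatin sonicated to 200 to 800 bp. Sex was not collected, the embryos of a collection were not separated by tissue, and of what drives the transgene nothing is given in the sources used. The control that the labels name was not analysed here, so no value from embryos without the tag stands beside the peaks.

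Rx is a paired-class homeodomain protein that acts in the developing brain and head of the fly, and proteins of its class bind words with the core TAATTA, alone or in pairs. Fly promoters fall into broad kinds. Promoters of regulated genes, which often stand alone, commonly carry sites of GAGA factor, a protein that keeps chromatin open, while promoters of genes used in every cell carry sites of Dref (the DRE), of M1BP (core promoter motif 1) and of the insulator protein BEAF-32, and many of them lie back to back with the promoter of a neighbour.

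The following stretches show what lay under one-direction promoter peaks that carry each kind of word, each from the highest such peak on 2L, 3L or 3R whose printed bases hold no UTR, or at most 30 bases of one for the DRE and the M1BP word (28 at Cnx99A). Each is written 5′ to 3′ on the strand of the gene, from the RefSeq Release 6 genome (dm6), and capitals mark the word on either strand. The first pair carry the words that were more frequent here than at bidirectional promoters, the GAGA word GAGAGAG at Btk, a Tec-family tyrosine kinase gene (chr2L:8277739-8277795, minus strand), and the CA repeat CACACACA at numb, an inhibitor of Notch signalling (chr2L:9449684-9449741, plus strand).
Btk: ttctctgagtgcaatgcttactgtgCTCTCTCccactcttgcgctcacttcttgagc
numb: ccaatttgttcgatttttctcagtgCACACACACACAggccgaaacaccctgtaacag
The next 5 carry words that were more frequent here than at distal peaks. They are the DRE TATCGATA at the translation elongation factor gene eEF1gamma (chr3R:29220106-29220163, plus), the M1BP word GGTCACACT at the calnexin gene Cnx99A (chr3R:29319617-29319675, minus), core promoter motif 7, CANCNCTA, at RluA-1 (chr2L:10474592-10474649, minus), the BEAF-32 word CGATA, which also lies inside the DRE, at CG14100 (chr3L:19590594-19590648, minus), and the E-box CAGCTG at the prohormone convertase gene amon (chr3R:26714452-26714507, minus).
eEF1gamma: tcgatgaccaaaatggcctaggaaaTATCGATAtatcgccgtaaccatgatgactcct
Cnx99A: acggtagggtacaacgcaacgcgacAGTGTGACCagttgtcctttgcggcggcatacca
RluA-1: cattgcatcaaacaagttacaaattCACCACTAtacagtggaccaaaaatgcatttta
CG14100: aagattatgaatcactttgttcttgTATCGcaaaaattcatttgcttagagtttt
amon: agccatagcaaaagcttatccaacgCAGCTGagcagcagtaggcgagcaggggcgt
The next pair carry the homeodomain words, the core TAATTA, from the promoter of CG18549 (chr3R:12449160-12449215, plus) and the P2 dimer, a pair of facing TAAT words 2 bases apart, at brwl (chr2L:9568724-9568783, plus).
CG18549: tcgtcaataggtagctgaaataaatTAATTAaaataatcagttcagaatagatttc
brwl: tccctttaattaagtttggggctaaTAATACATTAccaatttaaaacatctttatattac
The last carries the hexamer ACAGTG, found in an earlier search of these peaks, at Rtnl1 (chr2L:4997550-4997605, minus), a reticulon gene whose product shapes the endoplasmic reticulum.
Rtnl1: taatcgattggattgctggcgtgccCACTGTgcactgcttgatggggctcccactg

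The highest one-direction promoter peaks were high in both replicates. The peak at CG14100 was the highest of the 690, with a signal of 1719 in the series-wide list, 888 in replicate 1 and 835 in replicate 2. Signal is the authors' value of peak height, of unstated scale, and a replicate's signal comes from its own ranked list. The next was at px, a wing vein patterning gene, with 1308 and with 736 and 572 in replicates 1 and 2. Below it came the mitochondrial ribosomal protein gene mRpL41, with 1124 and with 660 in replicate 1 and 468 in replicate 2. PNPase, which encodes the mitochondrial polynucleotide phosphorylase, had 1017 and nearly equal values of 512 and 507. All of these signals lay far above the median of 96.5, and replicate 2 was the lower one in each. CG18549 had 811 (434 and 382 in replicates 1 and 2), CG1888 had 809 (426 and 387) and Rtnl1 had 765 (460.3 and 307). GstE13, a glutathione S-transferase gene, had 699 (383 and 315). Sox14, an ecdysone-induced transcription factor gene, had 653 (377 and 268), and Fkbp14, which encodes a peptidyl-prolyl isomerase of the endoplasmic reticulum, had 628 (357 and 281). The last 10 of the 20 highest had series-wide signals from 501 to 615 and were at Tina-1, the small heat shock protein gene Hsp27, eIF6, CG46429, CG13921, the casein kinase gene gish, RluA-1, CG31145, MFS18 and amon.

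Across all 690 peaks the signal ran from 5.25 to 1719, with quartiles of 64.9 and 165. The median was 104 in bidirectional promoter peaks and 82.6 in distal peaks. The median width was 284 bp, and 578 of the 690 had exactly that width. The lowest signals belonged to CG31886 (5.25), to Xbp1 (6.33), a transcription factor gene of the unfolded protein response, and to CG14968 (6.59). A limit of 20 was set after the values were seen: 13 peaks lay under it, and 12 of these overlapped another, separately listed peak. In all, 23 of the 690 overlapped another peak of the list. A replicate's peak can therefore be counted for both of a pair, as at Xbp1, where the peak of 6.33 and its neighbour of 96.2 share the replicate values of 53.2 and 35.7.

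Of the peaks, 383 of 690 (55.5%, 95% Wilson interval 51.8 to 59.2%), overlapped a thresholded peak of both replicates by at least 1 bp, beside 49.7% of all 2607 peaks on these arms. A further 93 were in the list of replicate 1 alone, 58 in that of replicate 2 alone and 156 in neither. The median signal was 155 for peaks in both lists, 74.8 for those in 1 list and 57.0 for those in neither. Peaks that recurred were thus the higher ones, but lists and signal come from the same libraries, so neither is independent of the other. Recurrence was more frequent than at distal peaks, of which 638 of 1455 (43.8%) were in both lists (odds ratio 1.60, Fisher's exact test, two-sided, adjusted p = 9.0e-07). In the 50% highest peaks that difference was lost (1.24, adjusted p = 0.627 by Fisher's exact test, range over 7 alternatives 8.17e-09 to 0.627). Of bidirectional promoter peaks 274 of 462 (59.3%) were in both lists, a difference that did not pass the test (odds ratio 0.856, adjusted p = 0.247 by Fisher's exact test). The highest 25% of all peaks by signal held 213 one-direction promoter peaks (30.9%), 158 bidirectional (34.2%) and 281 distal ones (19.3%). The odds ratio was 1.87 against distal peaks (adjusted p = 2.11e-08 by Fisher's exact test) and 0.859 against bidirectional ones (adjusted p = 0.247 by Fisher's exact test). With promoters of 250 bp in place of 500 bp, both differences from bidirectional peaks passed the test, with odds ratios of 0.633 and 0.610.

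Replicate heights followed each other closely. Of the 690 peaks, 676 overlapped a peak in both ranked lists, and the ratio of replicate 2 to replicate 1 had a median of 0.958, with 5th and 95th percentiles of 0.555 and 1.62. The ratio lay within a factor of 2 for 96.3%. Across these peaks, which share libraries and were listed because they ranked alike in both, Spearman's rho was 0.799. Of the 25 outside a factor of 2, 17 were lower in replicate 2 and 8 higher. The furthest below was by, a tensin gene, with 99.4 in replicate 1 and 30.6 in replicate 2 (ratio 0.308). The replicate 1 peak at by only partly overlapped the listed peak and had its own summit beyond it on one side, so that ratio compares neighbouring positions. Furthest above was zf30C, a zinc finger gene, with 36.4 and 112 (ratio 3.07). Both genes were picked after their values were seen.

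**Figure D1:**
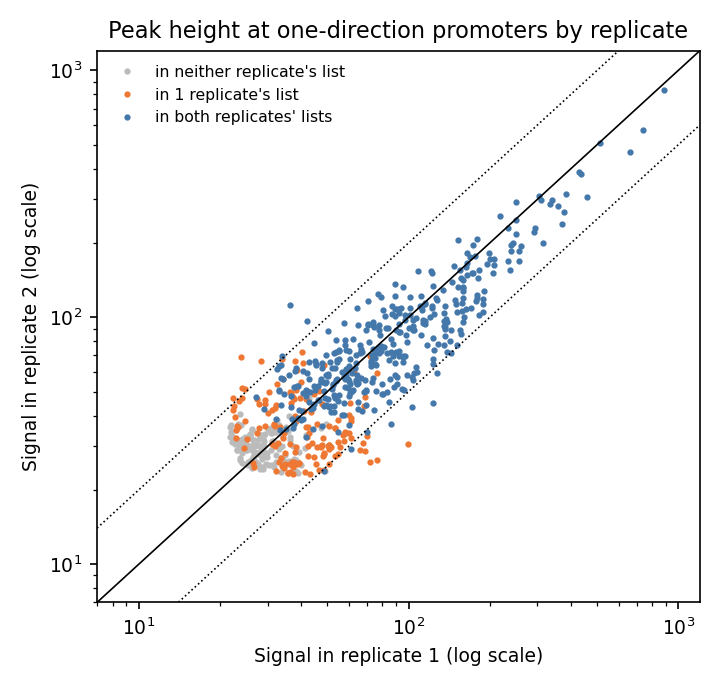
Signal of each one-direction promoter peak in replicate 1 (x axis) and replicate 2 (y axis), both on a log scale, with a solid line at equal signal and dotted lines at a factor of 2. Each point is 1 of 676 peaks, coloured by whether it is in both replicates' thresholded lists, in 1 or in neither. The points follow the solid line and 25 lie outside the dotted ones, while peaks in neither list crowd the low end.

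Because all starts at such a promoter point the same way, upstream and downstream are defined for every peak, and summits lay upstream. The summit was upstream of the nearest start in 564 of 690 peaks (81.7%, 95% Wilson interval 78.7 to 84.4%). With upstream positions written as negative, the median was -133 bp and the quartiles were -229 and -38.25 bp. A stretch of 50 to 250 bp upstream held 357 summits (51.7%), 149 lay further upstream, 97 lay less than 50 bp from the start, and 87 lay 50 bp or more downstream. The upstream share was 82.1% on 2L, 78.0% on 2R, 82.7% on 3L and 83.5% on 3R, with overlapping intervals. It was 86.1% of the peaks in replicate 1's list and 85.5% of those in replicate 2's, and 69.9% of the 156 in neither list. Among the highest 25% of the 690 by signal, 157 of 173 (90.8%, 85.5 to 94.2%) were upstream, with a median of -152 bp. In the lowest 25% 121 of 173 (69.9%, 62.7 to 76.3%) were, with a median of -73 bp. By place, 344 summits were between genes, 191 in an intron, 99 in a 5′ UTR and 12 in a coding exon of the same gene. Within another gene, 31 lay in an intron, 11 in a 3′ UTR and 2 in a coding exon.

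**Figure D2:**
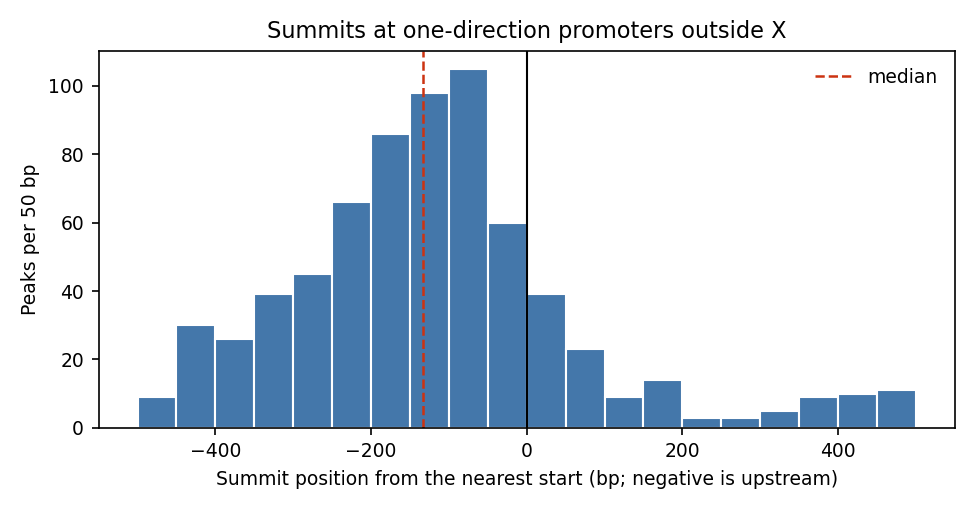
Number of summits of one-direction promoter peaks (y axis) in each 50 bp step of distance from the nearest start (x axis, in bp, negative is upstream), for all 690 peaks. The dashed line marks the median of -133 bp, and the counts fall off steeply past the start.

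The GAGA word had the highest odds ratio against bidirectional promoter peaks of the words tested. Within 100 bp of the summit the GAGA word was in 45 of 690 one-direction promoter peaks (6.52%, 95% Wilson interval 4.91 to 8.62%) and in 4 of 462 bidirectional ones (0.866%, 0.337 to 2.20%). The odds ratio was 7.99 (Fisher's exact test, two-sided, adjusted p = 5.2e-06). The CA repeat was in 23 (3.33%) and in 3 (0.649%), an odds ratio of 5.28 (adjusted p = 0.00815 by Fisher's exact test). These were 2 of the 23 words tested (8.7%), and 7 words (30.4%) were less frequent. Peaks with the GAGA word included px, with a signal of 1308, Btk with 372 (207 and 162 in replicates 1 and 2) and msi, a neural RNA-binding protein gene, with 299.7 (189 and 113). Toll-7, which encodes a Toll-family receptor, had 202 (89.2 and 121), and fng, which encodes a glycosyltransferase that modifies Notch, had 72.0 (39.4 and 28.4). The genes msi, Toll-7 and fng were picked after their values were seen. The median signal was 93.3 in peaks with a GAGA word and 96.8 in those without one.

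Promoters with no peak were searched for the same words. In 8157 one-direction promoters with no peak, measured in windows of the same 201 bp centred 133 bp upstream of the outermost start, the GAGA word was in 5.66% (5.18 to 6.19%), and in 2031 such bidirectional promoters it was in 2.95%. Both sets hold a single window per gene, and the bidirectional ones are genes whose every start has an opposite start within 500 bp. Windows of back-to-back genes can therefore overlap. The CA repeat was in 3.26% and 1.03% of the same windows. The GAGA word was in 6.15% of 179 one-direction promoter peaks on X. In peaks of middle GC content, 32.5 to 43.3%, a setting added after the data were seen, the GAGA difference from bidirectional peaks was lost (odds ratio 3.41, adjusted p = 0.131 by Fisher's exact test). It was also lost in windows of 50 bp either side (adjusted p = 0.142, range over 11 alternatives 5.13e-09 to 0.142, Fisher's exact test), where no bidirectional peak held the word. The CA repeat call was lost in 6 of 11 alternatives, each replicate's own list among them (odds ratios 2.30 without replicate 1 and 2.95 without replicate 2).

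Words of broadly used promoters were less frequent than at bidirectional promoter peaks. Core promoter motif 7 was in 78 one-direction promoter peaks (11.3%, 9.15 to 13.9%) and 109 bidirectional ones (23.6%, 19.9 to 27.7%), an odds ratio of 0.413 (adjusted p = 7.01e-07 by Fisher's exact test). The BEAF-32 word was in 201 (29.1%) and 207 (44.8%), an odds ratio of 0.506 (adjusted p = 7.01e-07 by Fisher's exact test). The DRE was in 29 (4.20%) and 39 (8.44%), an odds ratio of 0.476 (adjusted p = 0.0094 by Fisher's exact test). In promoters with no peak, one-direction and bidirectional in turn, motif 7 was in 5.93% and 11.5%, the BEAF-32 word in 29.7% and 45.5% and the DRE in 2.84% and 8.47%. The windows of promoters with no peak end before the start. The M1BP word was in 17 one-direction peaks (2.46%) and 18 bidirectional ones (3.90%) and did not pass the test (adjusted p = 0.361 by Fisher's exact test). With promoters of 250 bp the calls for the BEAF-32 word and the DRE were lost (odds ratios 0.817 and 0.947). In windows of 50 bp those for motif 7, the BEAF-32 word and the DRE were lost (0.531, 0.671 and 0.530), and that for the DRE also in the 50% highest peaks (0.463) and in middle GC content (0.515). Bidirectional summits lay nearer to a start, at a median distance of 82.5 bp against 154.5 bp. Motif 7 was in 21.6% of one-direction peaks less than 50 bp from the start and in 6.71% of those more than 250 bp upstream. The DRE and the BEAF-32 word fell likewise. The part of summit position in the differences between classes was not tested.

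The homeodomain core and the P2 dimer were less frequent as well, and so was 1 of 2 AT-rich words chosen to stand for no factor. The core TAATTA was in 101 one-direction promoter peaks (14.6%, 12.2 to 17.5%) and 100 bidirectional ones (21.6%, 18.1 to 25.6%), an odds ratio of 0.621 (adjusted p = 0.00845 by Fisher's exact test). The P2 dimer was in 12 (1.74%) and 21 (4.55%), an odds ratio of 0.372 (adjusted p = 0.0165 by Fisher's exact test, lost in 8 of 11 alternatives, range of the adjusted p 0.00299 to 0.449). The P3 dimer, with the words 3 bases apart, was in 18 (2.61%) and 17 (3.68%) and did not pass (adjusted p = 0.460 by Fisher's exact test). The TATA box word TATAAA was in 31.3% and 40.3% and the AT-rich control TTAAAA in 48.8% and 58.2%, with odds ratios of 0.676 and 0.685 (adjusted p = 0.00815 by Fisher's exact test for each). The other control, AATATT, was in 23.8% and 29.9% (adjusted p = 0.0515 by Fisher's exact test). It was less frequent and passed in 3 of 11 alternatives, with a lowest adjusted p of 0.0092 by Fisher's exact test (odds ratio 0.607, promoters of 250 bp). Among promoters with no peak, one-direction and bidirectional in turn, the core was in 16.6% and 19.1% and TATAAA in 32.95% and 38.6%. TTAAAA was in 42.2% and 51.6% of them, AATATT in 22.6% and 28.7%, and the P2 dimer in 164 of 8157 and 61 of 2031. Each of these words was thus less frequent at one-direction promoters without a peak too, which was not tested. Median GC content under the summits was 36.8% in one-direction, 34.6% in bidirectional and 36.3% in distal peaks. In peaks of middle GC content the core had an odds ratio of 0.685 and no longer passed, TATAAA had 0.969, and TTAAAA turned to 1.14. In windows of 50 bp the calls for the core, TATAAA and TTAAAA were lost too, with odds ratios of 0.679, 0.824 and 0.830. That for TTAAAA was also lost without replicate 1 (0.774) and in the 50% highest peaks (0.722). The part of base composition in these differences was otherwise not tested.

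**Figure D3:**
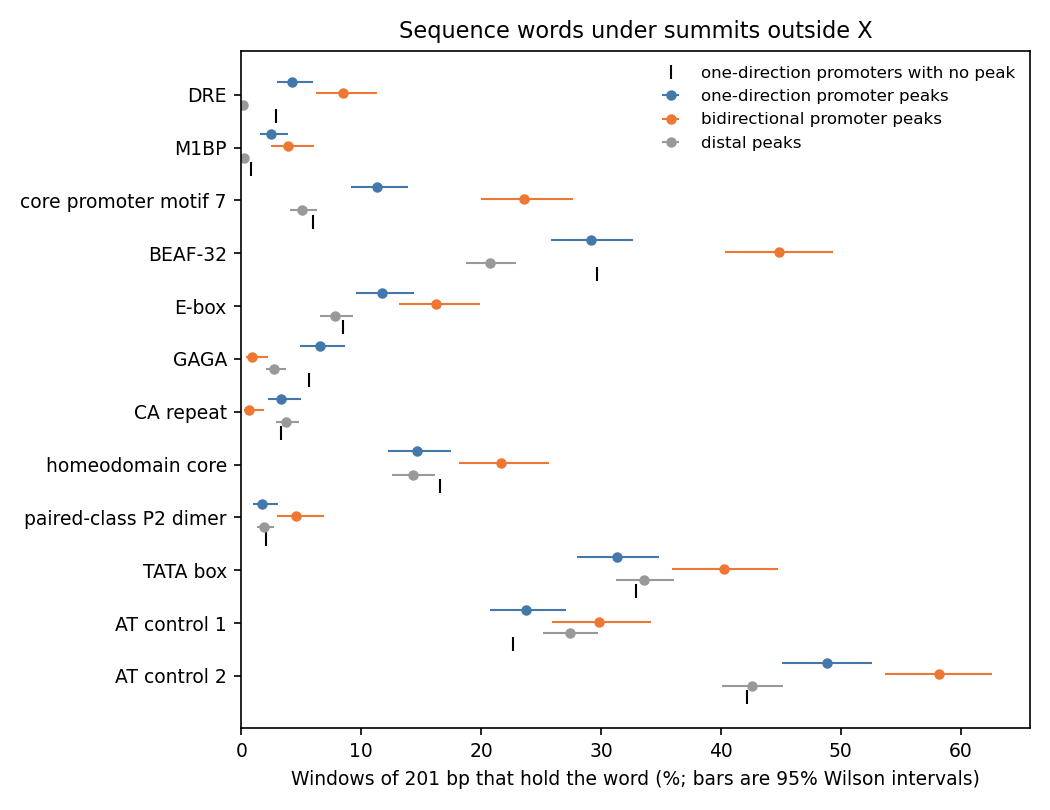
Share of windows of 201 bp that hold each of 12 words (x axis, in %), for one-direction promoter peaks (blue, n = 690), bidirectional promoter peaks (orange, n = 462) and distal peaks (grey, n = 1455), with 95% Wilson intervals as bars, and for one-direction promoters with no peak (black ticks, n = 8157). The GAGA word and the CA repeat are higher in blue than in orange, with black ticks close to blue, and motif 7, the BEAF-32 word and the AT-rich words are lower in blue than in orange.

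Against distal peaks the DRE, the M1BP word, motif 7, the BEAF-32 word and the GAGA word were more frequent, and the homeodomain core did not pass the test. The DRE was in 29 of 690 one-direction promoter peaks (4.20%) and 2 of 1455 distal ones (0.137%), an odds ratio of 31.9 (Fisher's exact test, two-sided, adjusted p = 1.8e-11). The M1BP word was in 2.46% and 0.206%, an odds ratio of 12.2 (adjusted p = 8.36e-06 by Fisher's exact test). Motif 7 was in 11.3% and 5.02% (odds ratio 2.41), the GAGA word in 6.52% and 2.75% (2.47), the BEAF-32 word in 29.1% and 20.8% (1.57), the E-box in 11.7% and 7.84% (1.56) and TTAAAA in 48.8% and 42.6% (1.29). These made 7 words (30.4%) that were more frequent, and 3 (13%) were less frequent, all of them hexamers from the earlier search of these peaks. AGTGTA was in 12.5% and 21.9% (odds ratio 0.509, adjusted p = 1.44e-06 by Fisher's exact test), GTGCAC in 7.83% and 11.6% (0.646) and ACTGTA in 11.6% and 16.2% (0.677). Because these hexamers were found in these peaks, their calls are a description and not independent support. Core promoter motif 6, another core promoter word, was in 7.97% and 8.18% and did not pass (odds ratio 0.972, adjusted p = 1 by Fisher's exact test), nor did it against bidirectional peaks, where it was in 12.1% (adjusted p = 0.0515 by Fisher's exact test). The homeodomain core was in 14.6% and 14.3%, an odds ratio of 1.03 (adjusted p = 0.970 by Fisher's exact test, range over 11 alternatives 0.338 to 1). In one-direction promoters with no peak the DRE was in 2.84%, the M1BP word in 0.785%, motif 7 in 5.93% and the GAGA word in 5.66%. The BEAF-32 word was in 29.7% of them, the E-box in 8.47%, TTAAAA in 42.2% and the homeodomain core in 16.6%. The windows of those promoters are centred 133 bp upstream and end before the start. In peaks the DRE and the M1BP word lay at medians of -37.5 and 2 bp from the start. For words near the start, shares in peaks and in promoters with no peak are therefore not counted alike. Distal peaks lie away from starts by definition, so these tests cannot tell a trait of the peaks from one of promoters. The calls for the DRE, motif 7 and the BEAF-32 word held in all 11 alternatives, with lowest odds ratios of 13.3, 1.80 and 1.44. Those for the M1BP word (6.37) and AGTGTA (0.671) were lost in windows of 50 bp, that for GTGCAC in 5 alternatives, without replicate 2 among them (0.665), and that for ACTGTA in 4, without replicate 1 among them (0.793). TTAAAA lost its call in 3, with odds ratios from 1.21 to 1.27. The GAGA call was lost with promoters of 250 bp, in windows of 50 bp and in peaks of middle GC content, with odds ratios of 1.48, 2.12 and 2.05, and the E-box call was lost in 5 alternatives, each replicate's own list among them.

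Words lay at different places along the promoter. In the peaks that carry it, the M1BP word had a median position of 2 bp past the nearest start, the DRE of -37.5 bp and the E-box of -38.5 bp. Motif 7 lay at a median of -86 bp, the GAGA word at -114 bp and the homeodomain core at -157.5 bp. The median summit was at -156 bp in the 45 peaks with a GAGA word and at -65.5 bp in the 114 with a DRE, M1BP word or motif 7. Words were searched only within 100 bp of the summit, so a word that lies near starts can be found only where the summit is near one, and the search itself links the place of a word to that of the summit. Both kinds were in 5 peaks, and 536 had neither. The homeodomain core was within 50 bp of the summit in 61 of 101 peaks (60.4%) and the control TTAAAA in 225 of 337 (66.8%). The DRE (62.1%), the BEAF-32 word (61.7%) and TATAAA (60.2%) were that near about as often as the core. AATATT (50.6%) and the M1BP word (35.3%) were so less often, and the GAGA word in 10 of 45 (22.2%). As the search reached only 100 bp, words placed without regard to the summit would often lie that near, and closeness was not tested.

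**Figure D4:**
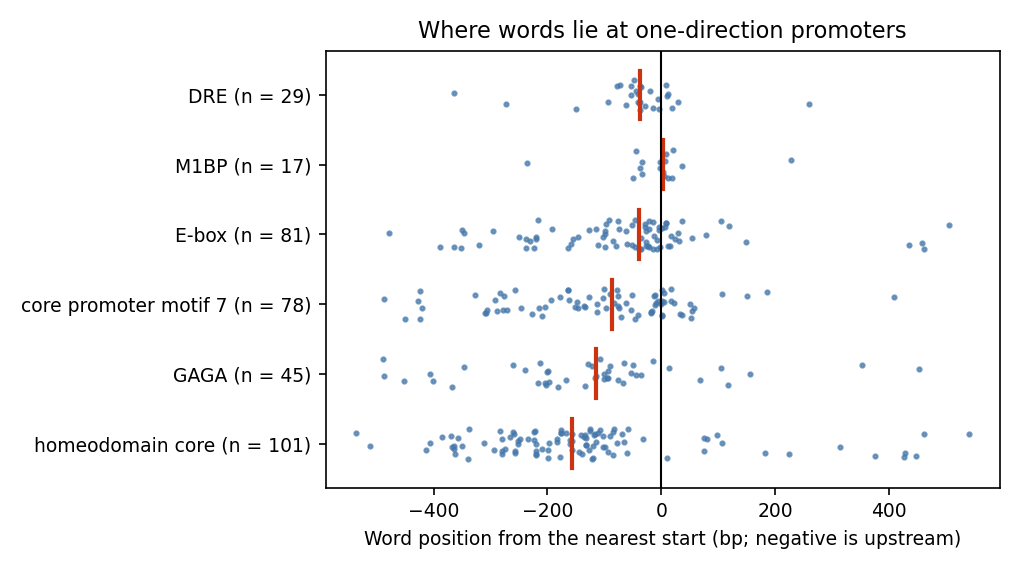
Position of 6 words relative to the nearest start (x axis, in bp, negative is upstream) in the one-direction promoter peaks that carry them, 1 point per peak with random vertical offset and red bars at the medians. DRE and M1BP words gather around the start, with medians of -37.5 and 2 bp, and homeodomain cores lie further upstream, with a median of -157.5 bp.

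The words found differed with the distance of the summit from the start, to which the same limit of the search applies. Of 97 peaks with a summit less than 50 bp from the start, 13 (13.4%) held a DRE and 46 (47.4%) the BEAF-32 word, and 3 (3.09%, 1.06 to 8.70%) held a homeodomain core. Of 149 peaks more than 250 bp upstream, 1 held a DRE (0.671%), 29 (19.5%) the BEAF-32 word and 25 (16.8%) a homeodomain core. The 357 peaks in between, 50 to 250 bp upstream, held a DRE in 3.64%, the BEAF-32 word in 28.6% and a homeodomain core in 16.8%. The 87 peaks 50 to 500 bp downstream held a DRE in 2.30%, the BEAF-32 word in 27.6% and a homeodomain core in 14.9%. GC content differed along with position, with medians of 43.8% near the start, 34.8% more than 250 bp upstream and 35.8% in between, as did the median signal, at 72.5, 98.9 and 111. Of the peaks near the start 40.2% were in both replicates' lists, and 56.4% and 63.3% of the upstream ones. The downstream peaks had a median GC content of 43.3% and a median signal of 70.4, and 39.1% were in both lists. They were thus close to the peaks near the start in GC content and height, but not in their shares of the DRE and the homeodomain core. The part of GC content and height in the differences by position was not tested.

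Height among the one-direction promoter peaks went with the AT-rich words TATAAA and TTAAAA. The TATAAA word was in 67 of the 173 highest (38.7%) and 41 of the 173 lowest (23.7%), an odds ratio of 2.03 (adjusted p = 0.0417 by Fisher's exact test, range over 11 alternatives 0.000404 to 1). TTAAAA was in 97 (56.1%) and 64 (37.0%), an odds ratio of 2.17 (adjusted p = 0.0125 by Fisher's exact test, range 0.000595 to 1). These were 2 of 23 words (8.7%), and none (0%) was less frequent at an adjusted or an unadjusted p under 0.05 by Fisher's exact test. The other AT-rich control, AATATT, was in 45 (26.0%) and 25 (14.5%) and did not pass (odds ratio 2.08, adjusted p = 0.0817 by Fisher's exact test). It passed in 1 of 11 alternatives, windows of 50 bp (odds ratio 5.94, adjusted p = 0.00112 by Fisher's exact test). The homeodomain core was in 32 (18.5%) and 22 (12.7%) and did not pass (odds ratio 1.56, adjusted p = 0.536 by Fisher's exact test). Neither call held in the list of either replicate alone, where the odds ratios were 1.38 and 2.06 for TATAAA and 1.83 and 1.65 for TTAAAA without replicates 1 and 2, nor in peaks of middle GC content (1.51 and 1.66).

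The hexamer ACAGTG had much the same share in the 3 classes of peaks. It was in 132 of 690 one-direction promoter peaks (19.1%, 16.4 to 22.2%), in 18.6% of bidirectional and 21.9% of distal ones, and in 7.67% of one-direction promoters with no peak (7.12 to 8.27%). ACACTG was in 18.3% of the peaks and 7.98% of those promoters, GTGCAC in 7.83% and 3.38%, ACTGTA in 11.6% and 7.38% and AGTGTA in 12.5% and 8.56%. These hexamers were found in these peaks and overlap one another, so the counts are a description. Around 159 ACAGTG sites in the peaks, read in the direction of the word, the base before it was C in 47.2% and the base before that G in 45.9%, and the base after it was G in 49.1%. In 655 sites of promoters with no peak the same bases made up 26.6%, 27.3% and 26.4%. The longer word GCACAGTGG, chosen after these values were seen, was in 36 one-direction promoter peaks (5.22%, 3.79 to 7.14%), 8 bidirectional (1.73%) and 60 distal ones (4.12%), and in 32 of 8157 promoters with no peak (0.392%). Peaks that hold it include those at Rtnl1 (765), Tina-1 (615), PAN3 (426), mrt (358) and spi (258), named for that word after their values were seen.

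At the start itself, one-direction promoters with a peak seldom held a TATA box. TATAAA beginning -45 to -15 bp from the start on the gene's strand was at 26 of 675 starts nearest to a peak (3.85%, 2.64 to 5.58%) and at 943 of 8157 starts with no peak (11.6%, 10.9 to 12.3%). The initiator word TCAGT, with its A within 5 bp of the start, was at 17.2% (14.5 to 20.2%) and 12.4% (11.7 to 13.1%). The polypyrimidine word TCTTT, placed likewise, was at 1.48% and 1.51%. At the starts of the 114 peaks with a DRE, M1BP word or motif 7, the initiator was at 7.89% (4.21 to 14.3%). These shares are counts with no test, and the starts with no peak are the outermost of each gene while those of peaks are the nearest.

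Few one-direction genes carried a peak at their start. Of 8988 protein-coding genes with a start that has no opposite start within 500 bp, 649 had a one-direction promoter peak there (7.22%, 6.70 to 7.77%). The share was 6.64% on 2L, 6.93% on 2R, 8.38% on 3L and 7.15% on 3R, and 1 of 73 genes on 4 had one. Of 2761 genes without such a start, 730 (26.4%, 24.8 to 28.1%) had a summit within 500 bp of a start. Each start of these genes has an opposite start within 500 bp, so a summit can be counted for the genes on both sides. Any of their starts was used, so this share is not counted in the same way as the 7.22%. Genes with a one-direction promoter peak were longer, with a median of 5484 bp against 2115 bp for the 8339 without one, and 52.7% against 26.6% of them had more than 1 start. A gene with several starts offers more places for a summit, and the part of this in the share was not tested.

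Ribosomal protein genes had the highest share of 21 lists of genes. Of 47 cytosolic ribosomal protein genes with a one-direction start, 16 carried a peak (34.0%, 22.2 to 48.3%), beside 7.22% of all such genes, and 14 of the 16 were in both replicates' lists. The median of their signals was 148, beside 101 over all 649 genes. RpL23A had 285 (145 and 139 in replicates 1 and 2), RpL24 had 231 (88.9 and 137) and RpS4 had 186 (90.9 and 108). Replicate 2 was the higher one in RpL24 and RpS4. Their summits sat on the start, from -78 to 22 bp with a median of -7.5 bp, and 6 held a DRE, 3 an M1BP word and none a GAGA word. Named after their values were seen, those with a DRE were RpS7, RpS29, RpS12, RpL39, RpL10Ab and RpL27, and those with an M1BP word were RpL27A, RpL37A and RpS23. Of all 97 peaks with a summit less than 50 bp from the start, 13.4% held a DRE, 6.19% an M1BP word and 3.09% a GAGA word. Of 31 ribosomal protein genes without a one-direction start, 22 had a summit at a start, beside 730 of all 2761 such genes.

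Of translation factor genes, 7 of 31 carried a peak (22.6%, 11.4 to 39.8%, median signal 178), beside 7.22% of all genes with a one-direction start. The highest was at eIF6, which acts in the making of the large ribosomal subunit, with 602 (309.8 and 297). The elongation factor genes eEF1gamma, with 284 (159 and 133), and eEF1alpha1, with 206 (77.1 and 124), came next. Of mitochondrial ribosomal protein genes 2 of 16 carried a peak, mRpL41 and mRpL4, the latter with 115 (47.9 and 65.4). The other lists of broadly used genes had at most 2 genes each with a peak at a one-direction start, and each of their Wilson intervals spans 7.22%. Oxidative phosphorylation had 2 of 40, ND-B22 (70.7) and UQCR-C2 (46.2), and there was none among 22 proteasome, 13 DNA replication, 8 splicing, 6 nucleoporin and 3 CCT chaperonin genes. Mediator had 1 of 9 (MED4, 107), TBP-associated factors 1 of 4 (Taf4, 116), Rab GTPases 1 of 13 (Rab5, 109) and vacuolar protein sorting 1 of 12 (Vps15, 74.95). Aminoacyl-tRNA synthetases had 0 of 12, but the rule by symbol missed beta-PheRS, named after its values were seen, which had 66.5. Of genes without a one-direction start, 13 of 46 mitochondrial ribosomal and 2 of 14 translation factor genes had a summit at a start. So had 7 of 28 oxidative phosphorylation, 7 of 14 Mediator, 5 of 11 nucleoporin and 4 of 17 aminoacyl-tRNA synthetase genes. The counts were 3 of 20 for proteasome, 3 of 18 for splicing and 4 of 13 for vacuolar protein sorting. TBP-associated factors had 1 of 9, Rab GTPases 1 of 5, DNA replication 0 of 7 and CCT 0 of 3.

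Of regulators, 4 of 15 insulator and promoter-binding protein genes carried a peak (26.7%, 10.9 to 52.0%, median signal 128), beside 7.22% of all genes with a one-direction start. They were Trl, which encodes GAGA factor, with 214 (115 and 96.5), jigr1 with 151 (96.4 and 50.6), the zinc finger gene pita with 105 (59.9 and 51.9) and BEAF-32, the fourth and named after its value was seen, with 92.0 (65.9 and 28.9). Replicate 1 was higher in all 4 genes. EGF, FGF, Wnt and BMP signalling had 4 of 25 (16%, 6.40 to 34.7%, an interval that spans 7.22%, median 83.4). The EGF ligand gene spi had 258 (152 and 105), the EGF inhibitor gene aos 103 (65.1 and 45.4), the FGF ligand gene bnl 63.9 (33.5 and 26.8) and the FGF receptor gene htl, also the fourth and named in the same way, 60.2 (30.9 and 29.1), and bnl and htl were in neither replicate's list. Among 33 Hox and other homeobox genes of the head and nervous system, all of which have a one-direction start, 3 carried a peak (9.09%, 3.14 to 23.6%, median 58.9). That share was near the 7.22% of all such genes. The homeobox genes with a peak were bcd, the maternal determinant of the anterior, with 122 (44.4 and 78.4), the eye specification gene so with 58.9 (30.5 and 25.3) and PHDP with 51.4 (34.9 and 27.6), and so and PHDP were in neither list. None of 16 Polycomb and trithorax genes with a one-direction start carried a peak there (Wilson interval up to 19.4%, which spans 7.22%), and of 10 without one 5 had a summit at a start. The chromatin remodeller gene brm is a member by the rule but is not counted among the 16, since its start has an opposite start within 500 bp, as for 12 of the 690 peaks.

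Lists of genes of differentiated tissues were read against the same 7.22%. There were peaks at 0 of 65 cuticle protein genes (Wilson interval up to 5.58%), 2 of 177 chemoreceptor and odorant binding genes (1.13%, 0.310 to 4.03%) and 2 of 67 cytochrome P450 genes (2.99%, 0.822 to 10.2%, an interval that spans 7.22%). The former pair were Obp99b (123) and Obp83g (56.8), the latter Cyp6u1 (235), whose peak is nearer to a start of Ufsp1, and Cyp317a1 (73.1). All lists were chosen with results of these data known, they differ in gene length and number of starts, and their shares were not tested.

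**Figure D5:**
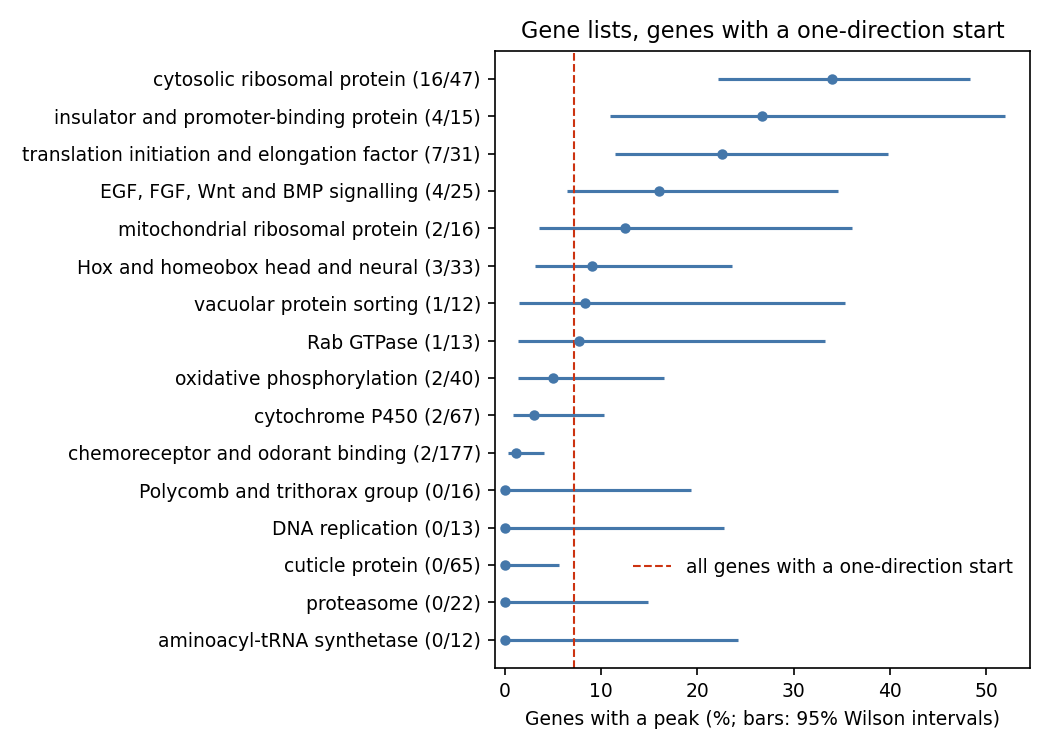
Share of genes with a one-direction start that carry a peak there (x axis, in %), for the 16 of 21 lists with at least 12 such genes, with 95% Wilson intervals as bars and counts in the labels. The dashed line is the 7.22% of all 8988 such genes, and ribosomal protein, insulator and translation factor genes have intervals wholly above it.

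Most genes had a single summit. Of the genes nearest to a summit, 607 had 1, 33 had 2, 3 had 3 and 2 had 4. Rtnl1 had 4 summits, over 7489 bp, each upstream of a different start, with series-wide signals of 765, 238, 125 and 109.9. All 4 were in both replicates' lists, with 460.3, 135, 73.8 and 60.7 in replicate 1 and 307, 96.4, 56.5 and 53.9 in replicate 2, so their order was the same in both. CG14968 also had 4, with 230.5, 189.8, 76.6 and 6.59, the last pair in overlapping peaks. CG1888 had 3 (809, 85.2 and 60.8), and so had shep, a neuronal RNA-binding protein gene (57.3 to 167), and SNF4Agamma, a subunit gene of AMP-activated kinase (12.8 to 93.0).

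Peaks on either side of the 500 bp limit had like signals. The members nearest inside it were CG1888 at 496 bp, with a signal of 85.2, and brm and Pcyt1 at 491 bp, with 73.3 and 55.1. Nearest outside it were Eip63F-1 at 502 bp (113), bark at -502 bp (93.8) and CG33725 at 503 bp (84.6). The 20 members in the last 50 bp inside the limit had a median signal of 84.4, and the 47 peaks up to 50 bp beyond it had 85.2. In the other series-wide list 709 peaks met the same rule, and 96 of them overlapped no conservative peak, with a median signal of 53.7. The highest of these was at yps, a gene of a cold shock domain protein, with 224, named after its value was seen. Conversely, 79 of the 690 overlapped no peak of that list, with a median of 52.5.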

How the data were processed

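The members and gene lists, like the 5 hexamers searched, were chosen with earlier results of these data known. The authors deposited peak lists on dm6, thresholded or ranked by irreproducible discovery rate, a measure of how well ranks of peaks repeat between replicates, which the header text of the files derives from alignments and a control. For aligner, peak caller and depth, nothing is given in the sources used. Peak height is the authors' signal value, of unstated scale. The deposited score is a whole number that was at least 830 in the main list. A replicate's signal is that of the highest overlapping peak in its own ranked list, which held 100253 and 114659 peaks.

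Starts came from Ensembl release 115, and sequence from the RefSeq Release 6 genome, the same assembly as dm6. Words were searched on both strands of 201 bp windows. Shares have 95% Wilson intervals, which cover counting error only. Fisher's exact test, two-sided, was adjusted by the Benjamini-Hochberg method over 23 words, or over the 4 comparisons of recurrence and height, with a threshold of 0.05 (scipy 1.17.1, pandas 2.3.3, Python 3.11.15), and was checked on simulated data. Peaks are not replicates, so these p-values say nothing of how embryo collections vary.

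Genes named are those at the 20 highest and 3 lowest members, up to 3 with the highest peak in each list, those with most summits, and those nearest either side of the 500 bp limit. Sequences are from the highest member with each word outside 2R and without UTR bases, or with at most 30 for the DRE and the M1BP word. Names outside this rule are marked as chosen after their values were seen. The alternatives were other distances, windows, start annotations and overlap criteria, the 50% highest peaks, the lists of single replicates and a second list of the whole series. After the data were seen, peaks of middle GC content and the highest peak per gene were added.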

Additional observations from a re-analysis of the deposited data

How the results depend on the processing

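Read depth and the control were not analysed here, and 2 embryo collections are few, so counting error over peaks is the error given. No paired analysis was possible because there is 1 group of samples. In all 8 alternatives that give it, most summits were upstream: the share was 75.03% with promoters of 1000 bp, 87.6% in the 50% highest peaks, and 84.0% to 85.6% in the lists of single replicates. The 50% highest peaks held 386 peaks at one-direction promoters. The share of one-direction genes with a peak was 6.47% with promoters of 250 bp, 8.90% with 1000 bp, 5.95% with starts of every biotype, 4.28% in the 50% highest peaks and 5.47% in the list of either replicate.

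Against bidirectional peaks, with promoters of 250 bp the odds ratio of recurrence in both replicates became 0.633 and that of height 0.610, and both passed the test. The odds ratio of height turned to 1.05 in the 50% highest peaks and ran from 0.789 to 1.05 over single replicates. Against distal peaks, that of recurrence fell to 1.24 in the 50% highest peaks. Words more frequent than in bidirectional peaks numbered 1 in the 50% highest peaks, with 250 bp and in either replicate's list, and 0 in windows of 50 bp and in middle GC content. Words less frequent numbered 4 in the 50% highest peaks, 0 in windows of 50 bp and 2 in middle GC. Against distal peaks 4 words were more frequent in windows of 50 bp, and 1 was less frequent there, in the 50% highest peaks and in middle GC. Words that differed by height numbered 0 in the 50% highest peaks, in middle GC and in either replicate's list, and 1 with 250 bp or the highest peak per gene. Where a count was 0, 0.5 was added to each count for the odds ratio. The causes of these changes were not tested.

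Odds ratios that changed direction were for TTAAAA against bidirectional peaks 1.14 in middle GC, for GTGCAC against distal peaks 1.08 in windows of 50 bp, for the P3 dimer 1.09 against bidirectional peaks with 250 bp and 0.973 against distal peaks in windows of 50 bp, and for the homeodomain core 0.980 against distal peaks in windows of 150 bp and 0.851 by height in middle GC. By height, the P3 dimer had 1.52 in middle GC and the P2 dimer 0.495 in the 50% highest peaks, 0.494 in middle GC, and 0.744 to 1.51 over single replicates. Against distal peaks the P2 dimer had 1.12 in the 50% highest peaks, in middle GC and in windows of 150 bp, 1.34 with 250 bp, 1.70 in windows of 50 bp and 1.25 without replicate 2.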

Other observations

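The peaks included 3 at genes with Hsp symbols, which encode heat shock proteins, all on 3L and, apart from Hsp27, named after their values were seen. Hsp27 had a signal of 607, with 305 in replicate 1 and 310.4 in replicate 2, and its summit lay at -145 bp. Hsp83 had 234.8, with 95.2 and 133, at -101 bp. Hsp26 had 64.2, with 38.7 and 25.4, and its summit lay at -100 bp. Hsp27 and Hsp26 encode small heat shock proteins and Hsp83 a chaperone. The Hsp26 promoter held 2 separate runs of the GAGA word within 57 bases, shown here because its GAGA sites are well studied, with capitals marking the word on the gene's strand in its reverse complement, CTCTCTC (chr3L:9377449-9377505, dm6, minus strand).
Hsp26: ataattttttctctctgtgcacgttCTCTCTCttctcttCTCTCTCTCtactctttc

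Of the 29 peaks with a DRE, 4 were picked after their values were seen: p53, with 119 (58.7 and 61.7 in replicates 1 and 2), the spindle checkpoint gene BubR1 with 89.0 (33.8 and 57.0), the histone kinase gene JIL-1 with 88.2 (34.7 and 48.8) and Su(H), the DNA-binding effector of Notch signalling, with 57.5 (24.0 and 36.7). Replicate 2 was the higher one in all 4 genes.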
